A study of Homo sapiens with 7 samples.

Results

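Regions of open chromatin shared by gene ends were examined in human neurons. They were found in every library and lie at the ends of at least 2 protein-coding genes. Accessibility was measured by ATAC-seq, an assay that uses Tn5 transposase to insert tags into open DNA, and each library was deposited as a list of peaks. The regions were defined on the shortest list, that of vehicle library 7, with 32828 peak intervals on chromosomes 1 to 22 and X. An interval was called constitutive where a peak of each of the other 6 libraries overlapped it by at least 1 bp, which 17462 intervals (53.2%) did. Of these, 1608 (9.21%) lay within 1000 bp of the ends of 2 or more protein-coding genes in RefSeq (GRCh38.p14) and are called shared regions here. A further 7365 constitutive regions lay at the ends of 1 gene (single-gene regions), and 8489 lay at no gene end. The presence of peaks in all 7 libraries chose these regions, so their presence is a description and not a result. The position in the gene table, and not the strength of the peak, set a shared region apart from the other constitutive regions. The 1000 bp were measured from the edges of the interval, so a wider interval can reach more gene ends.

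The cells were LUHMES, an established line from human fetal mesencephalon that grows under a tetracycline-controlled oncogene, labelled wild type. They were differentiated for 6 days with N-2 supplement, dibutyryl cyclic AMP, GDNF and tetracycline into cells labelled dopaminergic neurons. The treated group (4 libraries, differentiations 6, 7, 8 and 9) received antimycin A at 25 µM, which blocks respiratory complex III, with oligomycin at 10 µM, which blocks the ATP synthase, for 8 hours. The vehicle group (3 libraries, differentiations 6, 7 and 8) received DMSO. All cells came from 1 line, so the spread between libraries is that between differentiations and preparations of that line.

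Many human genes sit head to head, with their starts of transcription on opposite strands and a short stretch of DNA between them that serves as a promoter for both. Such bidirectional promoters are usually CpG-rich, lack a TATA box, and are known for housekeeping genes, including genes for DNA repair and for mitochondrial proteins. Their central part is kept free of nucleosomes, and factors such as ETS proteins (GABP among them), NRF1, YY1 and the CCAAT-binding factor NF-Y are known to act there.

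The DNA between opposite starts is shown for 9 shared regions, chosen because a gene of mitochondrial function or of the stress response lies on at least 1 side. Each sequence is taken from the RefSeq promoter table (GRCh38.p14) and written 5′ to 3′ on the plus strand, from the base after the start of the first gene (minus strand) to the base before the start of the second gene (plus strand). Capitals mark matches, on either strand, to short letter strings of known factors: ETS CCGGAAG, then NRF1 GCGCATGCG, then the CCAAT box, the GC box GGGCGG and the E-box CACGTG. The first pair encodes the cytosolic and the mitochondrial histidyl-tRNA synthetase, at chr5:140691371-140691454, with an ETS match near each start.
HARS1 and HARS2: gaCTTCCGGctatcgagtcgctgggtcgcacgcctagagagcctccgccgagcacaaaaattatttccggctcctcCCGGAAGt
PHB2 encodes a prohibitin of the mitochondrial inner membrane, and EMG1 a ribosomal RNA methyltransferase; the stretch at chr12:6970754-6970912 has 2 ETS matches and 1 GC box.
PHB2 and EMG1: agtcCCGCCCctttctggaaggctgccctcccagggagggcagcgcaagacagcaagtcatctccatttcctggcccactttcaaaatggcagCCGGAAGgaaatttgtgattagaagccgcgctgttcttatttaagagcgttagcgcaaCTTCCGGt
CHCHD4 encodes the import receptor of the intermembrane space, and TMEM43 a membrane protein; at chr3:14124871-14125051 an NRF1 match reads on both strands.
CHCHD4 and TMEM43: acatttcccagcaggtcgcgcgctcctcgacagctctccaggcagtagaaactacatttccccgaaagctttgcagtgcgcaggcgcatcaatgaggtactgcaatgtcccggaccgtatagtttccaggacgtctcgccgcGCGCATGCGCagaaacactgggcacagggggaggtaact
HELQ encodes a DNA repair helicase and MRPS18C a mitochondrial ribosomal protein; chr4:83455884-83456057 has 1 NRF1 match.
HELQ and MRPS18C: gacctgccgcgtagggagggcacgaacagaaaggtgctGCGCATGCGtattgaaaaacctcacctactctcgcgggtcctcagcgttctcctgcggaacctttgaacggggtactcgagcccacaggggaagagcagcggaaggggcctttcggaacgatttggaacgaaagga
IMMP1L encodes a subunit of the inner membrane peptidase and ELP4 a subunit of Elongator; chr11:31509623-31509766 has 3 CCAAT boxes, all on the minus strand.
IMMP1L and ELP4: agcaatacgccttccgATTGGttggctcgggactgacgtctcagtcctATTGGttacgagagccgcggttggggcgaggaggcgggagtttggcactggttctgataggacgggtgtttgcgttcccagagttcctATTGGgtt
ERCC8 encodes a protein of transcription-coupled repair and NDUFAF2 an assembly factor of complex I; chr5:60945071-60945204 has 2 CCAAT boxes, 1 on each strand.
ERCC8 and NDUFAF2: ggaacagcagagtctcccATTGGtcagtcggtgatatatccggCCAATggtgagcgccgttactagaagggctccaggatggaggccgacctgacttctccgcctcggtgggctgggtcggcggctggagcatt
HSPD1 and HSPE1 encode the mitochondrial chaperonin and its co-chaperonin; chr2:197500275-197500378 has 1 GC box and 1 E-box, and 74.0% of its bases are G or C.
HSPD1 and HSPE1: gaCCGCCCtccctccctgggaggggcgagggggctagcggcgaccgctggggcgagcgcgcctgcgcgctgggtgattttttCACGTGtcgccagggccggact
DDIT3 encodes CHOP, a transcription factor of the integrated stress response, and MBD6 a methyl-CpG-binding domain protein; chr12:57520518-57520714 has 1 ETS match, 2 CCAAT boxes and 3 GC boxes.
DDIT3 and MBD6: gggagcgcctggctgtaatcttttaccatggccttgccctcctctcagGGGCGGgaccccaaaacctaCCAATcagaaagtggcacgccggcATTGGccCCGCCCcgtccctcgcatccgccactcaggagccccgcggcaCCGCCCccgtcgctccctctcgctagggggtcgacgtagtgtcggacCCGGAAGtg
OPA1 encodes the dynamin-like protein of inner membrane fusion and ATP13A4 a P-type ATPase; none of the 11 strings searched is in the 88 bases at chr3:193593120-193593207.
ATP13A4 and OPA1: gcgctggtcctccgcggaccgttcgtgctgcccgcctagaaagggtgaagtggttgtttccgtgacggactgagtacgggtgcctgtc
A match is a string of letters and not a measured binding site.

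The 7 lists differed in length and depth. They held 188516, 248900, 55533 and 53063 peaks in treated libraries 6, 7, 8 and 9 and 53398, 32828 and 159902 peaks in vehicle libraries 6, 7 and 8. The sources used here give no read totals. The genomic background recovered from the deposited fold enrichments, a measure of relative depth, ran from 0.816 to 5.99 pileup units in treated and from 0.492 to 1.43 in vehicle libraries. Because of these differences, strength was compared as a percentile: each constitutive region's summit fold enrichment, the authors' value, was ranked among the same 17462 regions within its own library. Of 20 pan-neuronal markers, 18 to 20 had a peak within 1000 bp of an end in each library. Of 19 dopaminergic markers, 14 to 18 did in treated and 11 to 15 in vehicle libraries. TH, the rate-limiting enzyme of dopamine synthesis, had one in treated libraries 6, 7 and 8 and in 0 of the other 4 libraries, and ALDH1A1 in 0 of 7. Glial markers had one at 3 to 14 of 18 genes and mesenchymal and endothelial markers at 3 to 9 of 14. Both counts were highest in the longest lists, treated 6, treated 7 and vehicle 8. There, 13, 13 and 14 glial and 9, 9 and 7 mesenchymal and endothelial markers had a peak. GFAP, AIF1, PECAM1 and VWF had none in any library, while other genes of both lists had one in each library. The libraries are of bulk nuclei, so a lower value in every cell and a value from fewer cells with the region open cannot be told apart.

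The 1608 shared regions touched 3058 genes, or 15.3% of the 19974 protein-coding genes, at 1441 separate loci. Of the 7267 genes that have another gene's end within 2000 bp, 42.0% were at a shared region. At 1531 regions there were exactly 2 genes, at 73 there were 3, and at 4 there were 4 or more. In 59 regions a read-through gene was counted with 1 of its parts, 95 included a gene with a provisional LOC name, and in 85 a pair of genes had the same end position. Without read-through and LOC genes, 1484 regions still had 2 genes or more. The interval of vehicle 7 overlapped both ends itself at 850 regions, the second end was 1 to 500 bp away at 477, and it was over 500 and up to 1000 bp away at 281. A further 207 constitutive regions had their second end within the next 500 bp and were not included. Just inside the limit, the second end was 999 bp from the region of IL17RE and IL17RC, with a mean percentile of 40.0, and 996 bp away at both FUBP1 and DNAJB4 (80.9) and PHF23 and GABARAP (45.0). Just outside it, the distance was 1001 bp at DGKZ and MDK (36.5), 1002 bp at RNF125 and RNF138 (92.6) and 1009 bp at NALF1 and LOC124903206 (33.1). These few regions are examples and do not compare the strength on either side of the limit. The interval of FUBP1 and DNAJB4 shares its peak with another constitutive interval in 6 libraries, and its percentile in vehicle 7 was 21.0. The interval of NALF1 and LOC124903206 shares its peak in 5. In the other libraries, 159 to 241 shared regions lay under a peak that also covered another constitutive interval, and such regions carry the value of the wider peak.

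Most shared regions were head-to-head promoters. The strand of every gene was known for 1243 regions (77.3%), and it was not used for the other 365. Starts on both strands were present at 947 regions (76.2% of the 1243), and starts on 1 strand alone at 72 (5.79%). A start beside the transcription end of another gene was present at 214 (17.2%), and transcription ends alone at 10 (0.805%). The median of the mean percentiles was 63.8 for starts on both strands, 65.7 for starts on 1 strand, 52.4 for a start beside a transcription end and 39.4 for transcription ends alone. In each of the 7 libraries the median for starts on both strands (60.4 to 69.2) was above that for a start beside a transcription end (50.4 to 58.5), within-library gaps that were not tested. A region where a start meets another gene's tail was therefore weaker than a head-to-head region in 7 of 7 libraries.

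The opposite starts were close together. The median distance from the minus-strand start to the plus-strand start was 124 bp, with quartiles of −103 and 244 bp, where a negative distance means that the transcribed parts overlap. The starts crossed in this way at 251 of 947 regions (26.5%). They were 0 to 100 bp apart at 155 regions, over 100 and up to 300 bp at 367, over 300 and up to 1000 bp at 158 and more than 1000 bp at 16. The closest pairs had the lowest strength: the median of the mean percentiles was 51.2 at up to 100 bp, 67.2 at up to 300 bp, 67.6 at up to 1000 bp and 64.8 where the starts crossed. Their intervals were also the narrowest, with a median width in vehicle 7 of 600 bp for starts up to 100 bp apart, against 724 bp for those up to 300 bp apart and 813 bp for those up to 1000 bp apart. The part of width in that order was not tested.

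**Figure D1:**
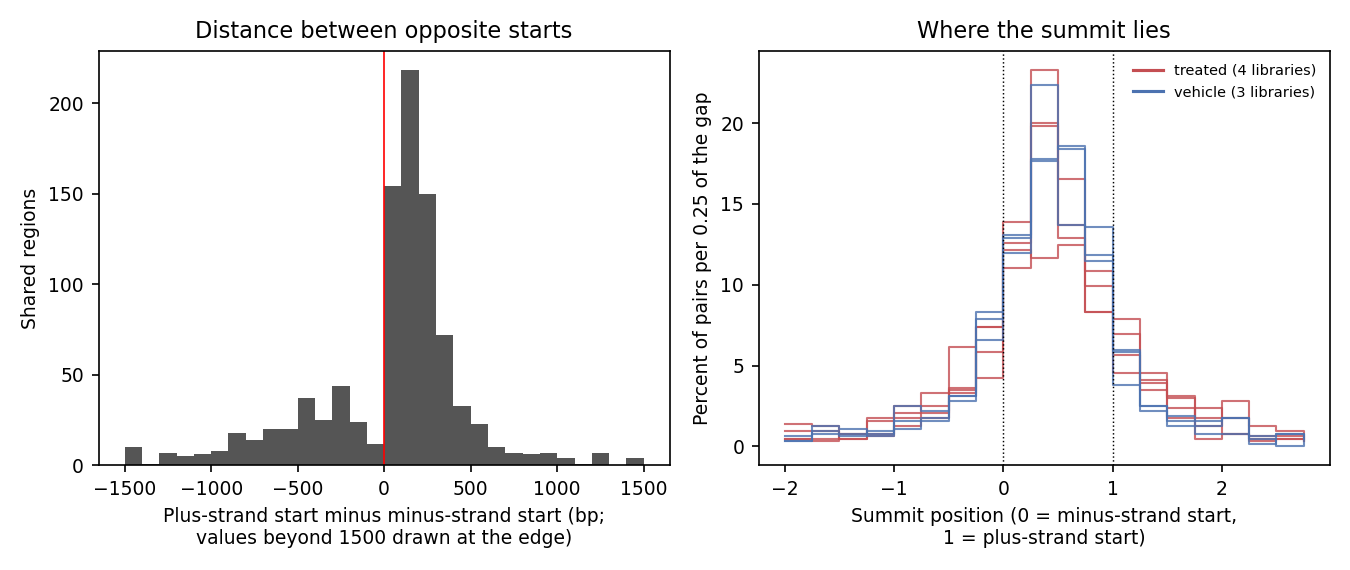
Left, number of shared regions by the distance between opposite starts (bp, bins of 100 bp). Right, summit position in each library relative to the gap, as a percent of 635 pairs (a pair covered by several intervals is counted for each). Most distances lie between 0 and 300 bp. In all 7 libraries the summit falls more often between the starts than beyond either start taken alone, with 44.6% between them in treated 9.

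The summit of the peak lay in the gap between the starts more often than beyond either start taken alone. Each of the 635 shared regions with opposite starts 50 to 1000 bp apart is counted as a pair. A pair covered by several intervals of vehicle 7 is therefore counted more than once. The summit was between the starts in 64.6%, 54.6%, 53.7% and 44.6% of pairs in treated libraries 6, 7, 8 and 9. In vehicle libraries 6, 7 and 8 the share was 60.2%, 58.1% and 65.7%, so the groups overlapped and treated 9 was the lowest library. Summits beyond the minus-strand start numbered 110 to 179 per library and those beyond the plus-strand start 104 to 173, so neither side was favoured in the same way in all libraries. The peak covered both starts of a pair in 97.8%, 99.7%, 87.6% and 95.3% of pairs in the treated and in 82.8%, 73.2% and 97.8% in the vehicle libraries. This share was lowest in vehicle 7, which has the shortest list and the narrowest peaks.

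The arrangement of neighbouring genes was examined over all annotated pairs, without selection on peaks. Among pairs of neighbours with ends within 2000 bp and known strand, 1207 were divergent (head to head), 939 convergent (tail to tail) and 889 in tandem. A peak lay at the facing ends of 93.5%, 94.9%, 88.3% and 90.1% of divergent pairs in treated libraries 6, 7, 8 and 9 and of 84.3%, 81.7% and 92.5% in vehicle libraries 6, 7 and 8. For convergent pairs the share was 20.7%, 26.8%, 11.2% and 11.0% in treated and 6.28%, 6.39% and 23.3% in vehicle libraries. Tandem pairs lay between, at 33.2% to 64.5%. The divergent share exceeded the convergent share by a mean of 74.3 percentage points and in 7 of 7 libraries. The exact two-sided sign-flip test gave p = 0.0156, the smallest that 7 libraries allow. Divergent pairs have starts at their facing ends and convergent pairs have none, so this direction could be foreseen and no conclusion is drawn from the p. All libraries were read over the same pairs, so the p does not measure the spread between pairs. The longest list (treated 7) gave the highest value of all 3 shares. Vehicle 6 and treated 9 had lists of nearly equal length and recovered backgrounds of 0.492 and 1.5, and their shares differed. The part of list length and depth in these shares was not tested. Constitutive regions lay at 77.2% of divergent, 27.0% of tandem and 2.98% of convergent pairs, a description that includes the choice of regions.

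The letters of the promoters were compared in windows from 250 bp before to 50 bp after a start (300 bp, 1 per gene). These were read for 1827 genes with starts on both strands at a shared region, 5333 genes with a start at a single-gene region, and 15812 protein-coding genes in all. An ETS match (CCGGAAG) was in 27.2%, 17.5% and 14.1% of the windows of these 3 sets. An NRF1 match (GCGCATGCG) was in 5.31%, 3.54% and 2.77%, a YY1 match (AAGATGGCG) in 5.15%, 3.6% and 2.69%, and a ZNF143 match (ACTACAATT) in 1.09%, 0.525% and 0.462%. Shared head-to-head promoters thus held each of these 4 strings more often than single-gene promoters. The CCAAT box was in 41.7%, 39.3% and 36.4%, and the E-box (CACGTG) in 10.7%, 10.1% and 8.82%. By contrast, the GC box (GGGCGG) was in 70.4% against 72.7% of single-gene promoters and 58.3% of all, and the cyclic AMP response element (TGACGTCA) in 2.96%, 3.69% and 2.56%. The TATA string (TATAAA) was in 4.49%, 5.31% and 9.75%, and the AP-1 string (TGACTCA) in 2.46%, 2.19% and 3.62%. The C/EBP-ATF string TGATGCAA, the element of ATF4 with a C/EBP partner, was in 0.493%, 0.544% and 0.677%. Median GC content was 64.0%, 65.7% and 62.7%, and the observed-to-expected CpG ratio 0.861, 0.849 and 0.762. Both strands were searched, matches may overlap, and the windows of a head-to-head pair overlap each other, so the genes of a pair are not independent and no test was made.

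**Figure D2:**
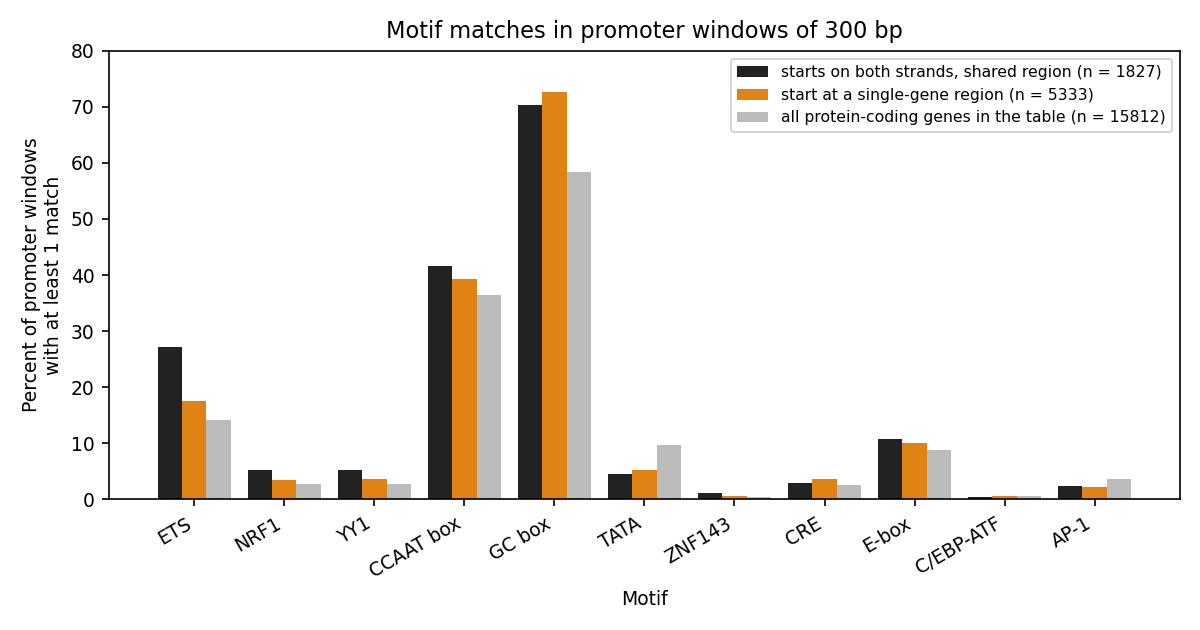
Percent of 300 bp promoter windows with at least 1 match to each string, for genes with starts on both strands at a shared region, genes with a start at a single-gene region, and all genes in the promoter table. The largest gap between the first 2 sets is for the ETS string, 27.2% against 17.5%.

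Genes of the mitochondrion and of DNA repair were at shared regions more often than protein-coding genes as a whole. Against 15.3% of all genes, the share was 40.5% (53 of 131) for the respiratory chain and ATP synthase, and 39.3% (22 of 56) for mitochondrial import, chaperones and proteases. It was 36.4% (28 of 77) for mitochondrial ribosomal proteins, 35% (14 of 40) for aminoacyl-tRNA synthetases and 42.7% (44 of 103) for DNA repair and replication. These lists also have more close neighbours: 58.0%, 66.1%, 67.5%, 55.0% and 66.0% of their genes have another gene's end within 2000 bp. Among the genes with such a neighbour, 69.7%, 59.5%, 53.8%, 63.6% and 64.7% were at a shared region, against 42.0% of all such genes. Genes of mitophagy and Parkinson disease (22.4%, 11 of 49), autophagy and lysosome (24.1%, 14 of 58), cytosolic ribosomal proteins (25.3%, 22 of 87) and the proteasome (22%, 11 of 50) lay between. The integrated stress response (11.1%, 4 of 36), oxidative stress (8.0%, 2 of 25) and zinc finger ZNF genes (12.6%, 64 of 509) were below the share of all genes.

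Pan-neuronal markers were at constitutive regions, but not at shared ones. Of the 20 pan-neuronal markers, 17 (85.0%) had an end at a constitutive region and 0 at a shared one, although 7 have a close neighbour. For all genes the share at any constitutive region was 48.0%. Of the dopaminergic markers, 10 of 19 (52.6%) were at a constitutive region, and the 2 that have a close neighbour were both at a shared one: PITX3, a homeobox factor of midbrain dopaminergic neurons, beside ELOVL3 and GBF1, and FOXA1, a forkhead factor, beside TTC6. At the region of PITX3 the start of 1 gene lies beside the transcription end of another, so it need not be the promoter of PITX3. Glial markers (0 of 18), mesenchymal and endothelial markers (0 of 14) and olfactory receptors (0 of 392) were at no shared region. These counts describe lists whose members were chosen with results of these data known, and no test was made.

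**Figure D3:**
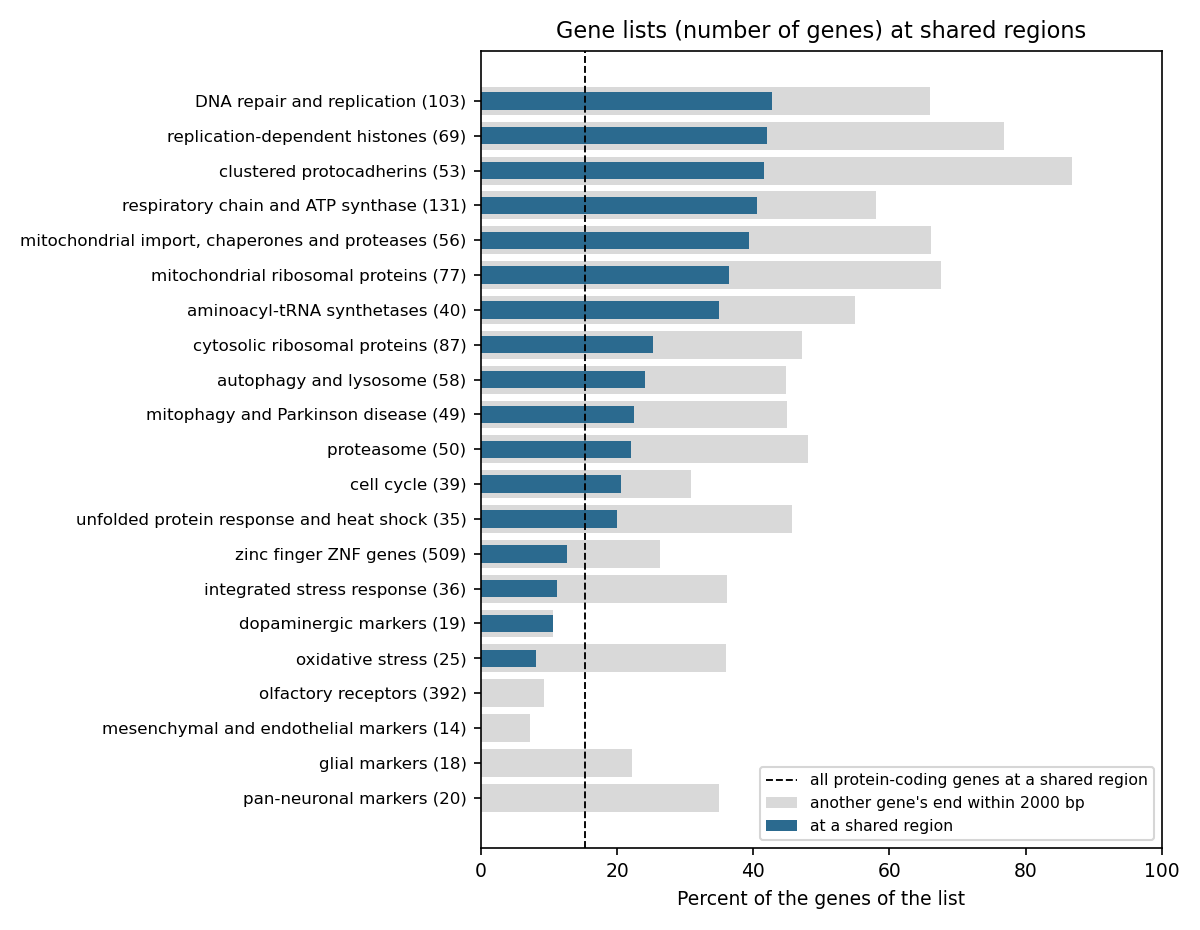
Percent of the genes of each list at a shared region (narrow bars) and with another gene's end within 2000 bp (wide bars), with the number of genes in brackets. The dashed line is the 15.3% of all protein-coding genes; DNA repair and the mitochondrial lists lie beyond it, and pan-neuronal markers are at 0.

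Mitochondrial ribosomal protein genes, which make the components of the organelle's own ribosome, were at 30 shared regions with a median mean percentile of 53.2. The strongest was between SKA3, a kinetochore gene, and MRPL57, with percentiles of 94.2, 95.9, 96.0 and 98.3 in treated libraries 6, 7, 8 and 9 and 91.2, 90.1 and 91.8 in vehicle libraries 6, 7 and 8. These groups did not overlap, the means were 96.1 ± 1.68 (SD, n = 4) and 91.0 ± 0.857 (SD, n = 3), and the adjusted p of limma was 0.344. MRPL50 with ZNF189 had a mean percentile of 92.5 over the 7 libraries. MRPL18, head to head with TCP1 of the cytosolic chaperonin across 210 bp, was covered by 2 intervals of vehicle 7 (87.9 and 87.6) that share 1 peak in the other 6 libraries. HELQ with MRPS18C, the NRF1 example among the sequences, ranged from 57.4 to 81.2 in treated and from 48.8 to 77.5 in vehicle libraries, so the groups overlapped. MRPS6, whose start lies beside that of the inositol transporter gene SLC5A3, had 67.4, 76.0, 75.1 and 75.9 in treated and 64.7, 56.6 and 65.3 in vehicle libraries, which did not overlap, with an adjusted p of 0.582 by limma.

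Genes of the respiratory chain and its assembly were at 60 shared regions, with a median of 54.9. The region near NDUFB2, a complex I subunit, and ADCK2 had 97.1, 98.8, 98.6 and 97.7 in treated and 87.9, 92.6 and 88.0 in vehicle libraries. Every treated value was above every vehicle value (98.0 ± 0.799, SD, n = 4, against 89.5 ± 2.69, SD, n = 3), and the adjusted p of limma was 0.105. ESF1 with NDUFAF5 (94.3) and ERCC8 with NDUFAF2 (93.6), each a complex I assembly gene, had overlapping groups. ERCC8 with NDUFAF2 lay within 90.6 to 93.9 in treated and 93.7 to 96.0 in vehicle libraries. UQCC6, a complex III assembly gene, shares its region (90.9) with TDG, a DNA glycosylase gene, and NDUFA2 shares one (89.5) with IK and TMCO6. ATP5PF, a subunit of the ATP synthase, starts beside GABPA, which encodes the DNA-binding subunit of the ETS factor GABP. The distance between the starts is −681 bp, so the transcribed parts overlap, and the region had a mean percentile of 90.2. Across this list 34 of 60 regions had a higher treated mean, and 5 had non-overlapping groups with treated higher. Over all shared regions these shares were 63.7% and 7.15%, and over all constitutive regions 50.9% and 5.5%, so the list did not stand out.

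Genes of mitochondrial import, chaperones and proteases were at 21 shared regions, with a higher median of 68.2. TOMM70, an import receptor of the outer membrane, lay 450 bp from LNP1, and its region was among the strongest of all, with 98.4, 99.6, 99.5 and 99.0 in treated and 99.1, 99.5 and 98.9 in vehicle libraries. IMMP1L with ELP4, the stretch with 3 CCAAT boxes, had 96.0 to 98.8 over all 7 libraries. TIMM10B with ARFIP2 had 88.3 to 93.2. The region of HSPD1 and HSPE1 had 89.2, 92.6, 93.4 and 96.4 in treated and 74.9, 94.7 and 86.7 in vehicle libraries. Its groups overlapped, vehicle 6 was the low library, and the adjusted p of limma was 0.55. In 6 libraries this region lies under a peak that also covers another constitutive interval. CHCHD4 with TMEM43 had means of 80.5 ± 6.79 (SD, n = 4) in treated and 87.3 ± 4.76 (SD, n = 3) in vehicle libraries. The proteases OMA1 (beside DAB1, 88.4), YME1L1 (beside MASTL, 85.5) and HTRA2 (beside AUP1, 81.1), which act in inner membrane and intermembrane quality control, had overlapping groups as well. The region of YME1L1 shares its peak with another constitutive interval in 6 libraries.

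Aminoacyl-tRNA synthetase genes, whose products charge tRNAs in the cytosol or the mitochondrion, were at 17 shared regions with a median of 79.0, the highest of the 7 mitochondrial and stress lists. AIMP1, a scaffold of the synthetase complex, with TBCK had 96.7 to 99.5 over the 7 libraries. EARS2, the mitochondrial glutamyl-tRNA synthetase gene, with UBFD1 had a mean percentile of 94.8. The region of HARS1 and HARS2 had 84.4, 87.7, 94.4 and 83.9 in treated and 96.7, 95.5 and 90.8 in vehicle libraries. The groups overlapped only through treated 8, and the adjusted p of limma was 0.43. RARS2 lay beside ORC3 of the origin recognition complex (83.0), and KARS1 beside TERF2IP, a telomere gene (82.3). The region of KARS1 shares its peak with another constitutive interval in 6 libraries.

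Of the integrated stress response, 4 genes were at shared regions. PSPH, the last enzyme of serine synthesis, with the chaperonin gene CCT6A had 95.0 to 99.3 over the 7 libraries. EIF2S1, which encodes the phosphorylated subunit of eIF2, with the proton pump gene ATP6V1D had 83.7 to 95.9. DDIT3 with MBD6 had 37.8, 69.2, 61.9 and 61.1 in treated and 60.4, 77.6 and 56.0 in vehicle libraries. Treated 6 was the lowest library, the groups overlapped, and the difference of means was −7.19 with an adjusted limma p of 0.812. The region of DDIT3 shares its peak with another constitutive interval in 2 libraries. ATF5, with NUP62 and IL4I1, was weak, with 4.15, 14.1, 22.1 and 39.7 in treated and 24.6, 30.9 and 16.0 in vehicle libraries. At these 4 regions 1 treated mean was higher and 3 were lower.

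Among mitophagy and Parkinson disease genes, VPS35 of the retromer lay beside ORC6, a gene of the replication origin complex (97.6), and USP15, a deubiquitinase, beside TAFA2 (94.7). PHB2 with EMG1 had 51.3, 52.8, 78.4 and 53.3 in treated and 55.7, 56.6 and 56.0 in vehicle libraries, where treated 8 alone stood high. OPA1 with ATP13A4 varied widely, from 29.4 to 66.6 in treated and from 38.3 to 69.7 in vehicle libraries. TBK1, a kinase of mitophagy receptors, starts near the transcription end of XPOT (85.4). Of the oxidative stress list, SOD2, the mitochondrial superoxide dismutase, shared its region (89.8) with ACAT2, and PRDX5, a peroxiredoxin, shared one (33.7) with TRMT112.

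The strongest shared regions were in the top few percent of every library. The 10 with the highest mean percentile ranged from 99.2 to 99.7. They were led by FHIP1B with CNGA4 (chr11:6234063-6235476), which had 99.9, 99.7, 99.7 and 99.5 in treated and 99.7, 99.7 and 99.9 in vehicle libraries. EBAG9 with EBAG9UORF (99.7), KYAT3 of tryptophan metabolism with RBMXL1 (99.6) and KBTBD3 with AASDHPPT (99.5), which attaches phosphopantetheine to acyl carrier proteins, came next. TRMT1L with SWT1 (99.4), LOC128031834 with ZNF654 (99.3) and DNAI4 with MIER1 (99.3) followed. The last 3 were TXNDC16 with GPR137C, LOC124903725 with MON1B, and PDCD10 with SERPINI1, which encodes neuroserpin (each 99.2). The largest difference of group means among these 10 was −0.675, at MON1B.

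As a class, shared regions were stronger than constitutive regions away from genes and close to single-gene regions. Their median percentile was 62.9, 66.3, 66.9 and 64.4 in treated libraries 6, 7, 8 and 9 and 60.4, 63.3 and 60.9 in vehicle libraries 6, 7 and 8. Single-gene regions had 60.9, 63.3, 61.9 and 61.1 in treated and 60.4, 56.6 and 57.5 in vehicle libraries. Shared regions were thus higher by a mean of 3.33 points, in 6 of 7 libraries, with a difference of 0 in vehicle 6. With a window of 2500 bp around gene ends the difference was −0.0573, so the order of these 2 classes depended on the window. Regions at no gene end had medians of 33.2 to 37.8 in treated and 40.3 to 44.5 in vehicle libraries, below both other classes in 7 of 7 libraries. In the top 10% of constitutive regions were 15.5% to 18.5% of shared, 13.0% to 14.5% of single-gene and 4.78% to 6.21% of the other regions.

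**Figure D4:**
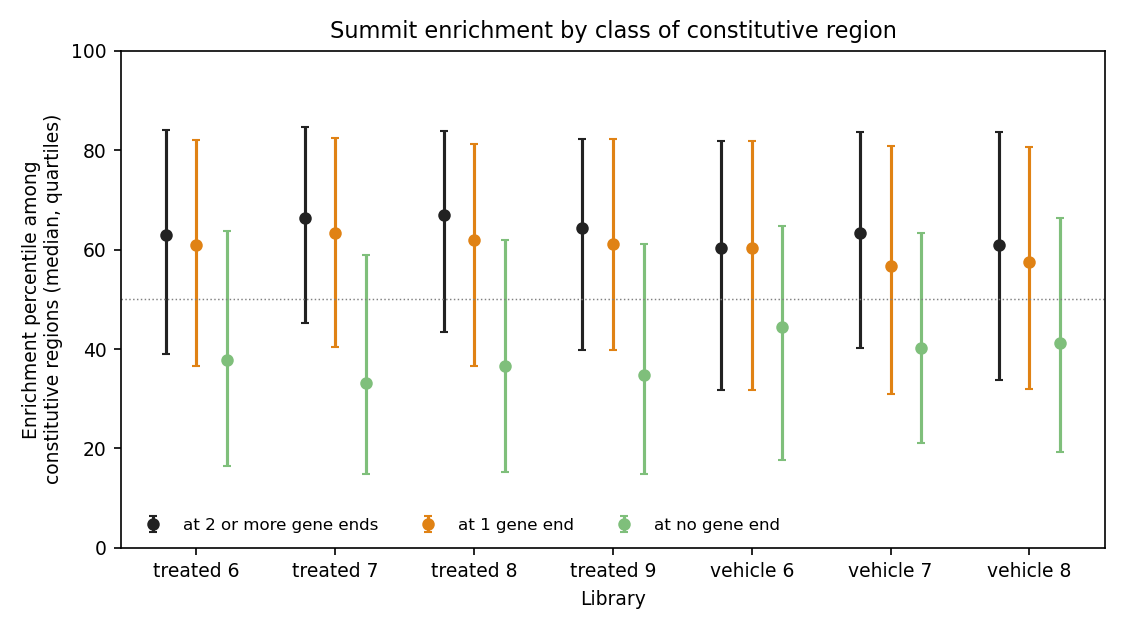
Median and quartiles of the enrichment percentile among the 17462 constitutive regions, by library and class of region. Shared regions (black) lie at 60.4 to 66.9, at or slightly above single-gene regions (orange), and regions at no gene end (green) lie at 33.2 to 44.5.

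Shared regions held a slightly higher rank after antimycin A and oligomycin, and single-gene regions did so by as much. The median percentile of shared regions was 65.1 ± 1.83 (SD, n = 4) in treated and 61.5 ± 1.55 (SD, n = 3) in vehicle libraries, and the ranges overlapped, since treated 6 (62.9) was below vehicle 7 (63.3). Single-gene regions had 61.8 ± 1.09 (SD, n = 4) and 58.2 ± 1.99 (SD, n = 3). Regions at no gene end went the other way, with 35.6 ± 2.03 (SD, n = 4) and 42.0 ± 2.21 (SD, n = 3), and here the ranges did not overlap. Since all classes are ranked together within a library, a higher rank of the regions at gene ends entails a lower rank of the others, so this is not a separate result. The gap between shared and single-gene regions was 3.31 ± 1.27 (SD, n = 4) in treated and 3.36 ± 3.33 (SD, n = 3) in vehicle libraries. Region by region, the treated mean was higher at 1024 shared regions (63.7%), against 50.9% of all constitutive regions. The median difference was 2.85 points for shared, 2.12 for single-gene and −3.0 for the other regions, and 0.23 over all. Recovered background and list length moved with treatment (background 2.62 ± 2.31, SD, n = 4, against 0.844 ± 0.511, SD, n = 3). With background as a covariate the difference of medians for shared regions was 3.77, and in the 4 libraries with short lists it was 3.78. With a window of 500 bp around gene ends it was 1.85.

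No shared region passed the test of treatment. Across all 17462 constitutive regions, limma on normal scores of the ranks called 0 (0%) at an adjusted p below 0.05, and 12.9% had an unadjusted p below 0.05. Among the shared regions 0 were called, the lowest adjusted p was 0.103, and 117 (7.28%) had an unadjusted p below 0.05, 92 of them higher and 25 lower in treated libraries. Without vehicle 8, limma called 41 of the 17462 constitutive regions, 35 higher and 6 lower, of which 3 were shared regions, all higher. Every treated percentile was above every vehicle percentile at 115 shared regions (7.15%), against 5.5% of all constitutive regions, and below at 43 (2.67%), against 7.39%. The share with treated above was thus near the background. The share with treated below was smaller than the background, and single-gene regions had a similarly low share (3.2%), while regions at no gene end had 11.9%. The 241 shared regions that share a peak with another constitutive interval held 27 of the 115 and 2 of the 43. Among the 1367 that share none, 6.44% had treated above and 3.0% treated below, beside 4.8% and 8.49% of all such constitutive regions.

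Among the shared regions whose groups did not overlap, the largest differences with treated above were at narrow intervals. They are given as values with no test, since they were ranked on this difference. The interval at chr10:35640993-35641367 lies near an end of FZD8, a Wnt receptor gene, and an end of LOC124902528. It had 83.6, 81.2, 95.3 and 85.5 in treated and 24.6, 11.4 and 69.7 in vehicle libraries, a difference of means of 51.1 points. NAIF1 with SLC25A25, which encodes a mitochondrial ATP-magnesium carrier, had 53.6, 75.2, 56.2 and 61.1 in treated and 11.2, 11.4 and 37.7 in vehicle libraries, a difference of 41.4. In both, vehicle 8 was the nearest of the vehicle libraries to the treated ones. PNMA1 with MIDEAS had 54.7, 60.2, 56.2 and 87.0 against 24.6, 11.4 and 37.7. BRCA1, the homologous recombination gene, with NBR1, an autophagy receptor gene, had 45.6, 44.5, 75.1 and 34.7 against 5.75, 11.4 and 16.0. GTPBP2, a ribosome rescue gene, with MAD2L1BP of the spindle checkpoint had 72.6, 65.0, 75.1 and 78.2 against 38.3, 21.0 and 44.6. Of these 5 intervals, 4 share their peak with a neighbouring interval of vehicle 7 in 5 or 6 of the other libraries (all but PNMA1 with MIDEAS), and their part in the difference was not tested. The 5 intervals were 256 to 542 bp wide in vehicle 7, against a median of 684 bp for shared regions.

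Differences with treated below are given for 4 intervals, of which 0 share a peak. DVL3, a Wnt signalling gene, with the clathrin adaptor gene AP2M1 had 46.8, 36.0, 22.1 and 24.7 in treated and 71.9, 80.8 and 58.9 in vehicle libraries, a difference of −38.2. PROSER1 with NHLRC3, a head-to-head pair 222 bp apart, had 44.4, 53.4, 29.4 and 61.1 against 83.7, 86.3 and 69.7, a difference of −32.8. RNF31, which encodes the linear ubiquitin ligase HOIP, with the interferon factor gene IRF9 had 60.0, 56.7, 22.1 and 61.1 against 79.8, 86.3 and 81.4. In these 3 pairs treated 8 was the lowest library. IFRD2 with HYAL3 differed by −24.6. At 3 of these 4 regions (DVL3, RNF31 and IFRD2) the start of 1 gene meets the transcription end of the other.

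**Figure D5:**
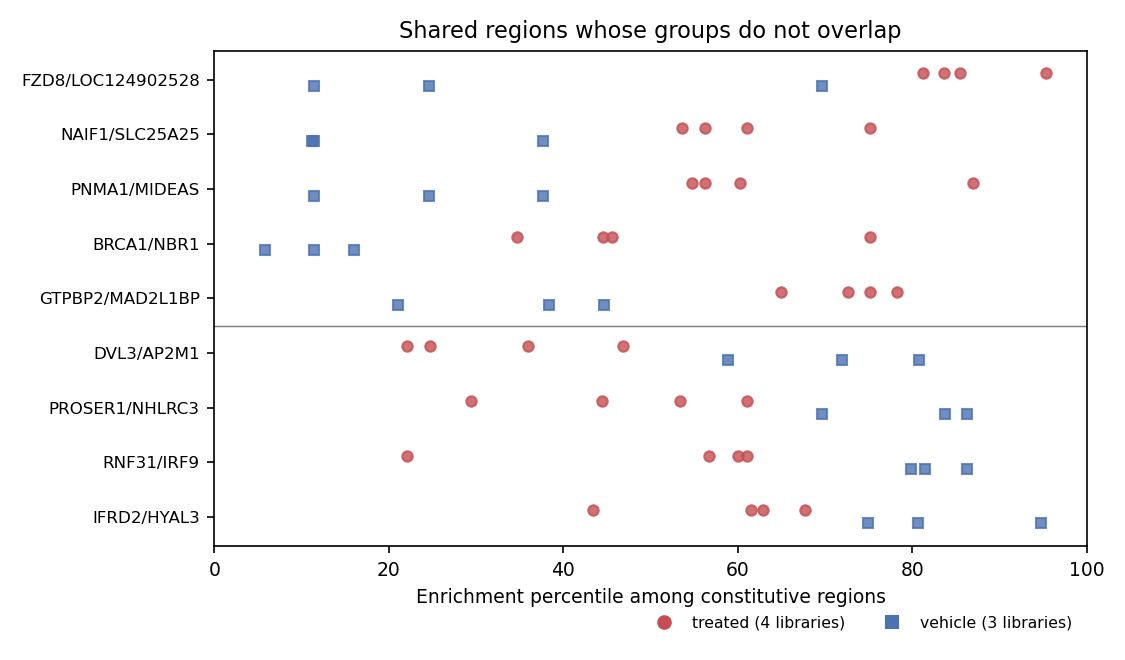
Enrichment percentile in each library for shared regions with the largest differences of group means among those whose groups do not overlap (5 with treated above, 4 with treated below). Treated libraries (circles) lie above vehicle libraries (squares) in the upper 5 and below in the lower 4; FZD8 with LOC124902528 has the widest spread among vehicle libraries, 11.4 to 69.7.

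Peaks over shared regions were wider than constitutive peaks in general and about as wide as those over single-gene regions. The window around gene ends was measured from the edges of the vehicle 7 interval, so wider intervals can reach more ends. Greater width is thus partly built into the choice of regions, and no conclusion is drawn from it. Their median width was 1551, 2050, 998.5 and 1361 bp in treated and 933, 684 and 1523.5 bp in vehicle libraries, against 1357, 1916, 764 and 1126 bp and 739, 504 and 1305 bp for all constitutive regions. Single-gene regions had 1546, 2079, 934 and 1327 bp in treated and 912, 627 and 1483 bp in vehicle libraries, so they were wider than shared regions in treated 7 and narrower in the other 6. On the log2 scale the width of shared regions relative to all constitutive regions was 0.237 ± 0.122 (SD, n = 4) in treated and 0.333 ± 0.109 (SD, n = 3) in vehicle libraries. The difference was −0.0959, and with background as a covariate it was 0.0447, so its direction depended on that choice. Relative width was largest in vehicle 7 (0.441) and smallest in treated 7 (0.0975), which have the shortest and the longest list.

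A few shared regions touch whole gene clusters. The region at chr5:141513530-141514674 lies within reach of DIAPH1 and of the end that 22 protocadherin gamma genes have in common, whose variable exons are joined to a shared downstream part. It had 60.0, 79.6, 61.9 and 87.0 in treated and 79.8, 80.8 and 76.4 in vehicle libraries. The region of POC1B, GALNT4 and their read-through genes had 72.6, 65.7, 43.4 and 53.3 in treated and 79.8, 83.7 and 85.4 in vehicle libraries, with no overlap and a limma adjusted p of 0.249. In 5 libraries it lies under a peak that also covers another constitutive interval. MKKS, a chaperonin-like gene of Bardet-Biedl syndrome, and SLX4IP, with 2 LOC genes, had a mean of 83.7. The weakest of these clusters, C1orf232 with ZNF593 and ZNF593OS, had 1.97 to 30.9 over the 7 libraries.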

How the data were processed

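ATAC-seq peaks of 4 treated and 3 vehicle libraries were analysed. The submitters' processing notes name FastQC, Bowtie2, Picard and the build hg38. Peaks were called by the authors separately for each library, and the deposited lists are in MACS narrowPeak form; caller settings, and any shift of reads for Tn5, are not stated in the labels or lists and would change peak width and number. Each deposited peak has a score, a summit fold enrichment (ratio), −log10 p-value and −log10 q-value, and the summit's distance from the peak start in bp. Within a library, fold and −log10 p order the peaks alike, because 100% of deposited folds are whole pileups (tolerance 0.02) over 1 constant background.

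The members, gene lists, motifs and named-gene rule were chosen with earlier results of these data known. Named regions were the 10 strongest, the 5 per direction with the largest non-overlapping difference, up to 8 strongest for each mitochondrial and stress list, the 5 with most genes, and 3 either side of the window; some regions that this rule names are not reported here. Where several peaks of a library overlapped an interval, the one of highest enrichment was used. Ranks, ties averaged, were turned to normal scores and compared with limma 3.58.1 (empirical Bayes with trend, Benjamini-Hochberg adjustment) on all 17462 regions. In vehicle 7, 9.96% of regions had the same value. No p is given for medians over members. Strand came from the RefSeq promoter table, which matched 86.1% of the 3058 genes. Scripts were checked on simulated data and against bedtools 2.31.1, with Python 3.11.15, numpy 2.4.6, pandas 2.3.3, scipy 1.17.1, matplotlib 3.10.9 and R 4.3.3. Coordinates are 1-based.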

Additional observations from a re-analysis of the deposited data

Results flagged for a closer look

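Among 85 groups of 4 treated values examined for a library far from the other 3, 4 were singled out, about as many as the 1 in 20 that chance gives. The measure is the gap to the nearest value divided by the group's range, set against Dixon's 95% critical value for 4 samples. At TRMT1L with SWT1 it was 0.916, with treated 6 low (98.6, against 99.5 in the other 3). At RNF31 with IRF9 it was 0.888, with treated 8 low (22.1, against 56.7 to 61.1). At SLC5A3 with MRPS6 it was 0.896, with treated 6 low (67.4, against 75.1 to 76.0). At PHB2 with EMG1 it was 0.927, with treated 8 high (78.4, against 51.3 to 53.3). The groups of 3 vehicle libraries were too small for this measure.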

How the results depend on the processing

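The difference between treated and vehicle medians of shared regions (3.57 points) kept its direction in all 20 alternatives. It was 4.94 with a window of 2500 bp, 5.01 with peaks of −log10 q of at least 5, and 3.43 without members that share a peak, an alternative chosen after seeing the data; in these 3 settings the groups did not overlap. Leaving out 1 library at a time gave 2.98 to 4.44. The difference between shared and single-gene regions (3.33 points) was −0.0573 with the window of 2500 bp and 2.35 with the stricter peaks, and 2.78 to 3.56 with 1 library left out other than vehicle 6, whose omission gave the highest value of 3.89. The number of shared regions was 1026 when starts alone were counted. Calls by limma ranged from 0 to 3, the 3 being without vehicle 8, where 41 of all 17462 constitutive regions were called. On centred log2 enrichment 28 of all regions were called and 0 shared ones. Relative width differed by 0.0447 with background as a covariate, against −0.0959. The excess of divergent over convergent pairs stayed at 73.5 to 78.0 points in its 10 alternatives. Same-numbered differentiations did not pair: deviations correlated at −0.1, −0.08 and −0.16, and with the replicate block limma called 0 shared regions, the medians differed by 3.81 and relative width by −0.108. The cause of these shifts was not tested. Ties limit the ranks: 1.07% to 9.96% of regions had a library's commonest value.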

Other observations

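Replication-dependent histone genes, which lie mostly in head-to-head pairs in clusters on chromosomes 6 and 1, were at 16 shared regions with 29 of the 69 genes (42.0%). These regions were weak, with a median mean percentile of 39.7. The treated mean was higher at 14 of the 16, beside 63.7% of all shared regions, and the median difference was 9.53 points beside 2.85. The pair H2AC25/H2BC26 counts with 2 intervals that have the same treated mean (60.5), with differences of 8.3 and 40.7. Groups did not overlap, with treated higher, at 2 of the 16, beside 7.15% of all shared regions, and 0 passed the adjusted p of limma. As examples chosen after their values were seen, H2AC17/H2BC17 had means of 46.2 in treated and 19.5 in vehicle libraries, H2BC4/H2AC6 36.2 and 11.0, and H2AC15/H2BC15 73.4 and 67.8. How reads were divided between near-identical histone copies is not stated in the labels. Cell cycle genes (9 regions, 7 with a higher treated mean, median difference 6.94) and proteasome genes (12 regions, 10 higher, median 6.4) can be read against the same 63.7% and 2.85, and 0 of their regions were called.

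Shared regions were unevenly spread over chromosomes. They reached 21.7% of the 605 protein-coding genes of chromosome 14 (131 genes), 19.6% of those of chromosome 6 and 19.2% of those of chromosome 16, against 9.79% of the 848 genes of chromosome X and 10.4% of those of chromosome 18.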
